A study of Caenorhabditis elegans with 4 samples.

Results

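The widest peaks for T26A5.5 in early embryos of Caenorhabditis elegans were described from lists made by chromatin immunoprecipitation and sequencing (ChIP-seq). The labels disagree on the antibody: title and design text name T26A5.5 as the target but give unlike codes, so which antibody was used is not settled here. A broad domain is a peak of the series-wide list that is wider than 2000 bp and overlaps, by 1 bp or more, a peak of the replicate 1 list and a peak of the replicate 2 list. These members were therefore selected on measured values, the width of the peak and its overlap with both replicates. There were 290 such domains among 12350 series-wide peaks. The series-wide peaks with support from both replicates numbered 6097 (49.4% of the list), of which the domains were 4.76%, and the other 5807 supported peaks of 2000 bp or less serve here for comparison. The study had 1 group of ChIP samples and 1 group of input samples (fragmented chromatin DNA taken before immunoprecipitation), each with replicates 1 and 2. All 4 samples were wild-type N2 early embryos of both sexes from cultures at 20 °C, with no transgene, mutation or treatment. Whether the replicates were separate cultures is not given in the sources used here.

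T26A5.5 is the gene jhdm-1 on chromosome III, which encodes a JmjC-domain protein related to the mammalian KDM2 histone demethylases. In mammals, KDM2 enzymes remove methyl groups from lysine 36 of histone H3 and are found at CpG-rich promoters. A chromatin protein can give narrow peaks at single promoters or wide stretches that cover whole genes or clusters of genes, and a peak caller may join or split such stretches. In C. elegans the arms of the autosomes are richer in repeats and in histone H3 lysine 9 methylation than the central regions, where many genes active in the embryo lie.

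The domains ranged in width from 2004 to 14247 bp, with a median of 2656 bp (interquartile range 2250 to 3636 bp). Their mean was 3171 bp (SD 1466, n = 290 domains). Widths fell off steeply above the threshold: 171 domains were wider than 2500 bp, 110 wider than 3000 bp, 55 wider than 4000 bp, 21 wider than 5000 bp and 3 wider than 10000 bp. Together the domains covered 919690 bp, which was 19.8% of all base pairs in supported peaks, 13.5% of those in the series-wide list and 0.918% of the summed chromosome spans. The 3 supported peaks just over the threshold were 2004, 2006 and 2013 bp wide and lay at I 13358685 to 13360688, I 14963776 to 14965781 and III 8134961 to 8136973, with scores of 86.14, 59.59 and 80.99. The 3 just under it were 1997, 1994 and 1994 bp wide and lay at II 49831 to 51827, II 4948011 to 4950004 and II 6586953 to 6588946, with scores of 39.07, 26.81 and 73.61. The distribution showed no gap at 2000 bp, so the threshold cuts through a continuous range. All coordinates are in WormBase WS220, and no domain was assigned to a gene because no annotation of that build was used here.

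The widest domain lay near the right end of X, at X 16929241 to 16943487 (14247 bp). It lay inside 1 replicate 1 peak of 16194 bp, and in replicate 2 it met 3 peaks with a summed width of 13155 bp that covered 90.8% of it. Both replicates thus held nearly the whole stretch, with replicate 2 broken into pieces. The second widest, II 13817076 to 13828664 (11589 bp), lay whole inside 1 peak of each replicate, 13298 bp in replicate 1 and 14037 bp in replicate 2. The third, III 1445962 to 1456264 (10303 bp), lay inside a replicate 1 peak of 11483 bp and a replicate 2 peak of 21625 bp. At this domain the replicate 2 interval ran on well past the domain, whereas the replicate 1 interval ended close to it.

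The next in width were III 341672 to 349799 (8128 bp), V 2132327 to 2140044 (7718 bp), II 8476406 to 8483813 (7408 bp) and I 8974912 to 8982039 (7128 bp). The replicate 1 and replicate 2 extents were 11923 and 10833 bp at the first of these and 14249 and 7921 bp at the second. They were 8316 and 11215 bp at II 8476406 to 8483813 and 13348 and 13266 bp at I 8974912 to 8982039. Each of these 4 was met by a single peak of each replicate, and which replicate had the longer interval varied among them. The last 3 of the 10 widest were I 6283504 to 6289943 (6440 bp), III 4275611 to 4282011 (6401 bp) and I 10822591 to 10828852 (6262 bp), with replicate 1 extents of 7955, 9093 and 13092 bp and replicate 2 extents of 8278, 9294 and 8829 bp. Chromosome IV had no domain among the 10 widest, and its widest was IV 13888263 to 13894504 (6242 bp), inside a replicate 1 peak of 7907 bp and a replicate 2 peak of 8014 bp.

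The domains ranked high by score. The score is the authors' value from peak calling, its unit is not stated, and it comes from the same peak calls as the width, so its ranks are given as a description with no test. The median score of the domains was 66.07 (interquartile range 43.73 to 85.29), against 20.33 for the narrower supported peaks (6.69 to 41.51) and 39.65 for those of over 1000 to 2000 bp. In rank, the median domain stood at the 94.4th percentile of the series-wide list and the median narrower supported peak at the 69.0th. Of the domains, 189 of 290 (65.2%, Wilson 95% interval 59.5 to 70.4) were in the highest 10% of the list and 40 (13.8%) in the highest 1%. Of the narrower supported peaks 987 of 5807 (17.0%) and 82 (1.41%) were. Among the domains themselves width and score went together only weakly, with a Spearman rho of 0.16 across 290 domains. Across the 5807 narrower supported peaks rho was 0.60. The rule split these peaks by width, which limits the range of widths behind each rho. Nothing is therefore read from the difference between these coefficients. Both values of a peak come from 1 list, and neighbouring peaks are not independent, so these coefficients describe the list.

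**Figure D1:**
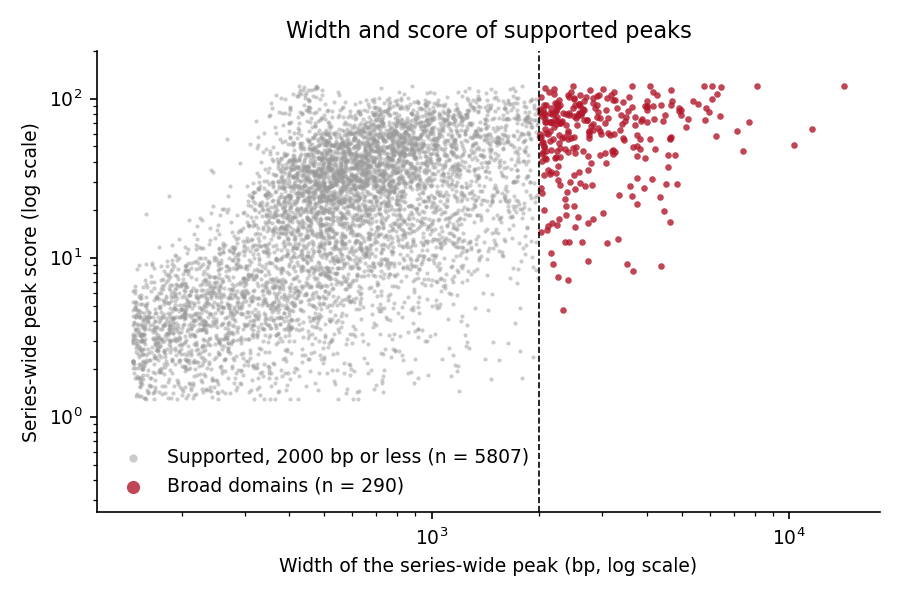
Each point is a series-wide peak supported by both replicates, with its width in bp on the x axis and its series-wide score on the y axis, both on log scales; red points are the 290 domains, grey points the 5807 narrower peaks, and the dashed line marks 2000 bp. Scores of the domains lie mostly in the upper part of the range (median 66.07) and reach down to 4.68.

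The highest score in the list, 120.44, was held by 9 peaks, and 6 of them were domains. The 5 widest of these were X 16929241 to 16943487, III 341672 to 349799, X 6616828 to 6622924 (6097 bp), III 12596469 to 12602241 (5773 bp) and II 12787594 to 12791225 (3632 bp). X 6616828 to 6622924 stood alone, with the nearest other supported peak 100267 bp away, and the replicate extents there were 6884 bp and 6949 bp. III 12596469 to 12602241 was instead a piece of a much longer interval, 22737 bp in replicate 1, and its 2 replicate 2 peaks had a summed width of 22311 bp. The top of the score range thus held both isolated domains and domains inside long replicate intervals.

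A few domains were wide but scored low. The 5 lowest scores were 4.68 at III 13718055 to 13720384 (2330 bp), 7.19 at III 4447489 to 4449897 (2409 bp), 7.54 at I 12214740 to 12216999 (2260 bp), 8.29 at I 11079314 to 11082960 (3647 bp) and 8.92 at V 3434578 to 3438949 (4372 bp). The first of these was at the 25.7th percentile of the list, but it lay whole inside a replicate 1 peak of 8599 bp and a replicate 2 peak of 8315 bp, both scored 3100. In all 8 domains scored below the median of the list, and 6 of the 8 (75%, Wilson 95% interval 40.9 to 92.9) had a higher-scored supported peak within 1000 bp. These 8 were picked for their low scores, and 67.1% of all narrower supported peaks scored above that median. A higher-scored neighbour is therefore likely by selection, and nothing is read from this share. Of the 5, only I 12214740 to 12216999 had no supported peak within 1000 bp; its nearest lay 1593 bp away, and a replicate 1 peak with a score of 343.52 covered 78.9% of it.

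Domains lay on all 6 chromosomes. Chromosome I held 65, II 63, IV 48, V 47, III 43 and X 24. Per Mb of chromosome span, I had 4.32 domains, II 4.12, III 3.12, IV 2.75, V 2.25 and X 1.35. As a share of the supported peaks on the same chromosome, domains made up 5.56% on II (Wilson 95% interval 4.37 to 7.05), 5.39% on V (4.08 to 7.09), 5.22% on I (4.12 to 6.60), 4.74% on IV (3.60 to 6.23), 4.20% on X (2.84 to 6.17) and 3.40% on III (2.54 to 4.55). The low number of domains on X therefore went with a low number of supported peaks there: X held 8.28% of the domains (5.62 to 12.0) and 9.44% of the narrower supported peaks (8.71 to 10.2), and these intervals overlap. Chromosome III had the most supported peaks, 1263, and the lowest share of domains, while V had few supported peaks, 872, and a high share. Intervals of neighbouring chromosomes in this order overlap, so the order itself is not resolved. They cover counting error only, and neighbouring domains are not independent.

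Domains of V were the widest on median, at 3328 bp, followed by II with 2934 bp, X with 2772 bp, I with 2588 bp, IV with 2515 bp and III with 2406 bp. Domains held 23.9% of the supported base pairs on V, 23.0% on II, 20.4% on I, 19.6% on X, 18.0% on IV and 14.6% on III. On X the domains had the highest median score of any chromosome, 81.13, whereas the narrower supported peaks of X had the lowest, 16.33. On the autosomes the domains had median scores from 60.09 on V to 71.26 on IV, and the narrower peaks from 20.07 on II to 22.08 on V.

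**Figure D2:**
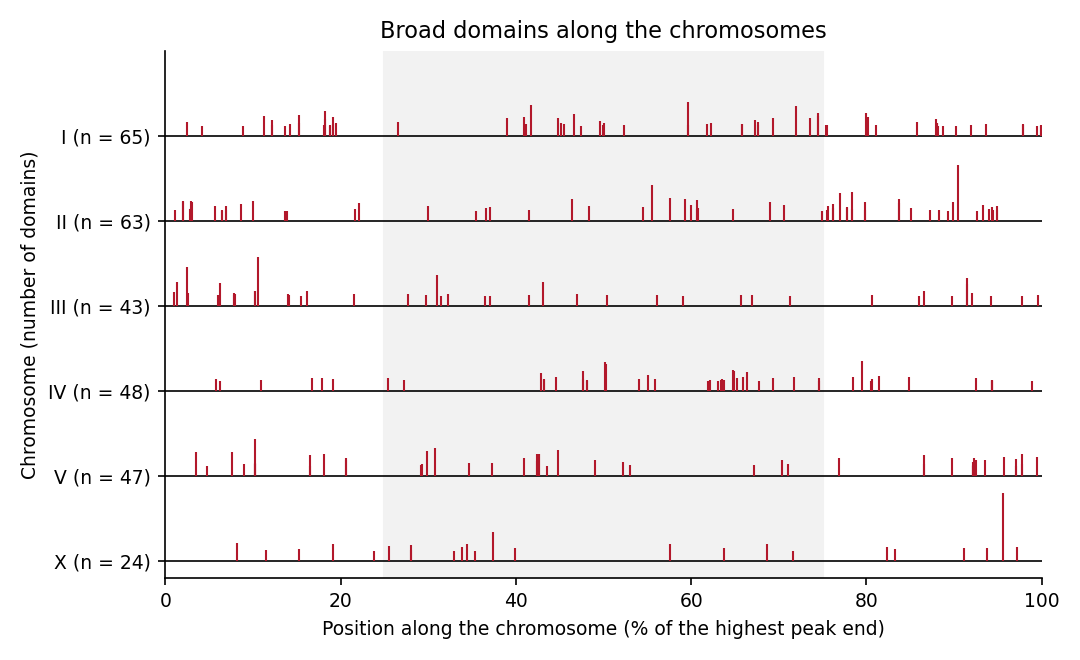
Position of the 290 domains along each chromosome, as a percent of the highest peak end on it; each red line is a domain, its height is proportional to its width (the tallest is the 14247 bp domain on X), and the grey band marks the central 25% to 75%. Domains gather in groups, such as those in the arms of II and near the middle of IV, with long stretches that hold none.

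The share of domains in chromosome arms was above that of narrower supported peaks, by an amount that depended on the support rule. Arms are the parts below 25% and above 75% of the chromosome's span. Of all supported peaks 44.0% lay there, while of the domains 164 of 290 did (56.6%, Wilson 95% interval 50.8 to 62.1) and of the narrower supported peaks 2521 of 5807 (43.4%, 42.1 to 44.7). Put the other way, 164 of 2685 supported peaks in arms were domains (6.11%, 5.26 to 7.08) and 126 of 3412 in the centres (3.69%, 3.11 to 4.38). Among all 12350 series-wide peaks, supported or not, 6327 lay in arms (51.2%, 50.3 to 52.1), a share inside the interval of the domains. The support rule kept 94.5% of the wide and 48.2% of the narrower series-wide peaks. With support asked of replicate 2 alone the shares in arms were 56.7% for domains and 48.2% for narrower peaks, and with replicate 1 alone 56.2% and 45.9%, so part of the contrast went with the choice of comparison peaks. No test was made of this difference. The left arms held 76 domains and the right arms 88. Along the width classes the share in arms was 43.2% up to 500 bp, 41.6% over 500 to 1000 bp, 48.7% over 1000 to 2000 bp, 57.2% over 2000 to 3000 bp, 57.3% over 3000 to 5000 bp and 47.6% among the 21 domains wider than 5000 bp. The rise with width thus did not extend to the widest class, whose interval ran from 28.3 to 67.6%. Narrower supported peaks whose score fell in the interquartile range of the domains had 41.5% in arms (477 of 1150, 38.7 to 44.3), close to the share of all narrower peaks.

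The higher share in arms was not shared by every chromosome. On II 44 of 63 domains lay in arms (69.8%, 57.6 to 79.8) against 47.2% of the narrower supported peaks (44.2 to 50.2), on III 27 of 43 (62.8%, 47.9 to 75.6) against 41.4% (38.7 to 44.2), and on V 28 of 47 (59.6%, 45.3 to 72.4) against 37.5% (34.2 to 40.8). On I it was 37 of 65 (56.9%, 44.8 to 68.2) against 42.8% (40.0 to 45.6), with intervals that overlap at the edge. On IV the order was the other way, with 17 of 48 domains in arms (35.4%, 23.4 to 49.6) against 44.2% (41.1 to 47.3), and on X 11 of 24 (45.8%, 27.9 to 64.9) stood against 49.5% (45.3 to 53.6), with overlapping intervals on both. Without II the share over the other chromosomes was 52.9% (46.4 to 59.3) against 42.6%, and without IV it was 60.7% (54.5 to 66.7) against 43.3%. With domains less than 10000 bp apart counted once, 125 of 235 lay in arms (53.2%, 46.8 to 59.5).

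**Figure D3:**
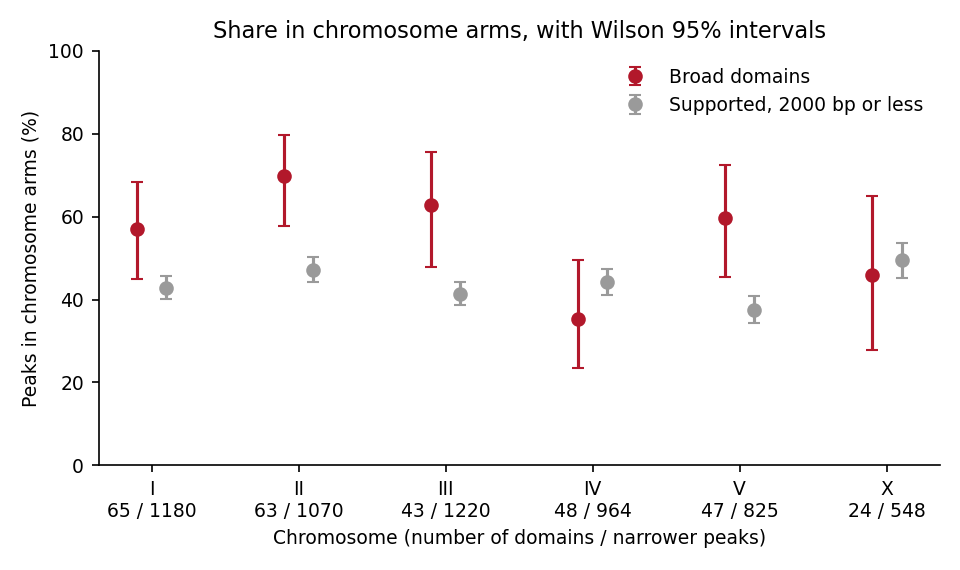
Percent of peaks in chromosome arms on each chromosome for the domains (red) and the narrower supported peaks (grey), with Wilson 95% intervals as bars; numbers of peaks are under each chromosome. The domain share lies above that of narrower peaks on I, II, III and V and below it on IV and X, with overlapping intervals on I, IV and X.

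The arm share was lower among the widest peaks of the replicate lists, which have a higher width cut-off than the domains. The 290 widest peaks of the replicate 1 list, all at least 5612 bp wide, had 44.8% in arms (39.2 to 50.6), against 43.0% of its other peaks. The 290 widest of the replicate 2 list, all at least 6098 bp wide, had 42.4% in arms (36.9 to 48.2), against 50.5% of its other peaks. The difference was thus within the interval in replicate 1, and in replicate 2 the widest peaks had the lower share. List and width cut-off change together here, so their parts cannot be told apart. In the series-wide list, the 21 domains wider than 5000 bp had 47.6% in arms (28.3 to 67.6). The wide intervals of the lists were only in part the same places: 113 of the 290 widest replicate 1 peaks (39.0%) and 106 of the 290 widest replicate 2 peaks (36.6%) met a domain, and 139 of 290 domains (47.9%) met one of the former and 132 (45.5%) one of the latter. Between the replicate lists, 169 of the 290 widest replicate 1 peaks (58.3%) met one of the 290 widest in replicate 2. Those peaks are mostly wider than the domains, and wider intervals meet more easily, so this share is not compared with the shares above. The widest replicate intervals held a median of 5 series-wide peaks in each list (interquartile range 3 to 6 in replicate 1 and 3 to 7 in replicate 2). Wide intervals there thus usually held several separate series-wide peaks: 152 of the 290 (52.4%) held 5 or more in each list. MACS v2 made the series-wide list and MACS the replicate ones, and the part of the caller in this was not tested.

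At the scale of 1 Mb, the domains were unevenly spread. Of 103 bins, 17 held no domain, while 20 bins with 5 or more, picked by that number, held 136 of the 290. Bins also differed in supported peaks, and the last bin of a chromosome is shorter. The share of all supported peaks in those 20 bins was not computed. The 136 domains are therefore given as a count, and no excess over supported peaks is read from them. The empty bins differed in this: II 15000001 to 16000000 held only 14 supported peaks, while III 10000001 to 11000000 held 87 and I 4000001 to 5000000 held 77. The fullest bin was I 2000001 to 3000000, with 12 domains among 97 supported peaks (12.4%). II 1 to 1000000, II 11000001 to 12000000 and IV 11000001 to 12000000 held 10 each, among 117, 121 and 99 supported peaks. In V 19000001 to 20000000 a smaller number, 7, made up 16.3% of only 43 supported peaks. The widest gap between neighbouring domains, 3131666 bp, lay on X to the right of X 7065857 to 7068456.

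Most domains had another supported peak close by, usually on 1 side. Most of the narrowest supported peaks had one close by too. The gap from a domain's edge to the nearest supported peak had a median of 236 bp (interquartile range 129 to 1164 bp), against 437 bp for the narrower supported peaks (155 to 2547 bp) and 339.5 bp for those of over 1000 to 2000 bp. A supported peak lay within 1000 bp of 213 of 290 domains (73.4%, Wilson 95% interval 68.1 to 78.2) and of 63.5% of the narrower ones (62.2 to 64.7). By width class the narrower peaks differed among themselves, with 73.1% up to 500 bp, 51.5% over 500 to 1000 bp and 67.9% over 1000 to 2000 bp. Close neighbours were thus as frequent at the narrowest supported peaks as at the domains, and least frequent in between. For domains this was on 1 side only in 152 cases (52.4%, 46.7 to 58.1) and on both sides in 61 (21.0%, 16.7 to 26.1). For the narrower peaks of all classes together the shares were 42.7% (41.5 to 44.0) and 20.8% (19.7 to 21.8). Only 24 domains (8.28%) had no supported peak within 10000 bp. No 2 series-wide peaks were less than 51 bp apart, whereas both replicate lists had gaps down to 1 bp.

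**Figure D4:**
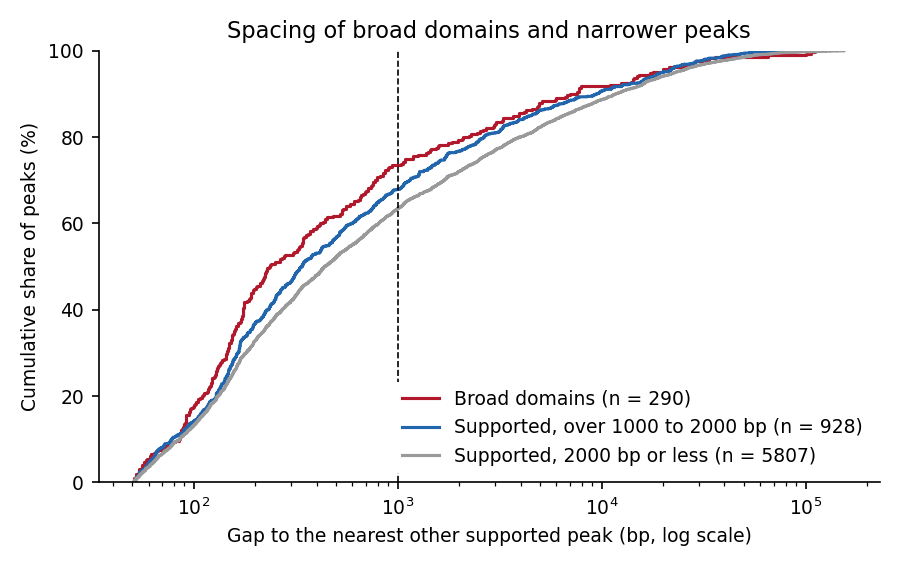
Cumulative percent of peaks (y axis) whose nearest other supported peak lies within the gap on the x axis (bp, log scale), for the 290 domains (red), the 928 supported peaks of over 1000 to 2000 bp (blue) and all 5807 of 2000 bp or less (grey); the dashed line marks 1000 bp. At that line the curves stand at 73.4%, 67.9% and 63.5%.

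Domains also followed each other in the list. The next supported peak was itself a domain after 36 of 290 domains (12.4%, Wilson 95% interval 9.10 to 16.7) and after 254 of 5801 narrower peaks (4.38%, 3.88 to 4.94), beside the 4.76% of supported peaks that were domains. No test was made of this. From 1 domain to the next on the same chromosome the median gap was 176890 bp (interquartile range 38138 to 469377 bp, n = 284 gaps). It ranged from 104758 bp on II and 118614 bp on I through 175891 bp on IV, 224344 bp on III and 252184 bp on V to 472673 bp on X. Against these long medians, 55 gaps (19.4%) were under 10000 bp and 26 (9.15%) under 1000 bp.

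The 26 close pairs, which took in 49 domains, were mostly parts of a single longer interval in the replicate lists. In 22 of them (84.6%, 66.5 to 93.8) both domains met the same replicate 1 peak. In 20 (76.9%, 57.9 to 89.0) the leftmost replicate 2 peak that each domain met was the same. That count leaves out pairs that share only a later peak, such as II 455052 to 459264 and II 459423 to 463429. The smallest gap, 51 bp, separated V 3434578 to 3438949 from V 3439001 to 3441108, both inside the same replicate 1 peak (8085 bp) and the same replicate 2 peak (8021 bp). The next were 56 bp between I 2734663 to 2739866 and I 2739923 to 2743441, 67 bp between IV 13031591 to 13033619 and IV 13033687 to 13036458, 73 bp between IV 16482349 to 16484552 and IV 16484626 to 16486658, and 86 bp between V 20245182 to 20248767 and V 20248854 to 20250922. Domains of a pair often had unequal scores: the higher was a median of 2.46 times the lower (interquartile range 1.51 to 4.13), and in 5 pairs more than 5 times. On I the pair scored 74.99 and 9.15, the largest ratio at 8.20, and on IV the domain at 13031591 scored 14.42 and its partner at 13033687 scored 113.02. Neither the sharing of replicate peaks nor the score ratio was computed for close pairs of narrower peaks. At narrower peaks, as at domains, a median of 2 series-wide peaks met the same replicate peak in each list. Sharing and unequal scores are therefore not read as particular to domains.

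When domains less than 10000 bp apart were chained, 187 stood alone, 41 chains held 2 and 7 held 3, the most in any chain. The chains of 3 ran from I 2726539 to 2743441, I 13257660 to 13265240, II 447287 to 463429, III 1077123 to 1091042, IV 16482349 to 16489166, V 2126912 to 2140044 and V 19240255 to 19250470, and none was on X. In I 13257660 to 13265240 the domains filled 7338 of 7581 bp, and all 3 met a single peak in each replicate. In IV 16482349 to 16489166 they filled 6586 of 6818 bp, and a single replicate 1 peak of 12639 bp met all 3, while replicate 2 had a separate peak for each. So the same chain was joined in 1 list and split in another.

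Replicate peaks at the domains were long and often had a score of 3100 or more. The replicate peaks that met a domain had a median summed width of 5491 bp in replicate 1 (interquartile range 4042 to 7998 bp) and 5743 bp in replicate 2 (4156 to 8157 bp). For the narrower supported peaks these were 2686 bp and 2520 bp, and over each whole list the median peak was 1735 bp and 1307 bp wide. These replicate values rest on the reads that also gave the overlaps used to choose the domains, and are given with no test. The repeated value of 3100, which few peaks of these lists exceed, was reached or passed at 202 of 290 domains in replicate 1 (69.7%) and 262 in replicate 2 (90.3%), and at 181 (62.4%) in both. At the narrower supported peaks the shares were 15.3%, 35.6% and 12.0%, and over the whole lists 9.48% of replicate 1 and 15.3% of replicate 2 peaks had such a score.

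The replicates nearly always covered the domains in full. Replicate 1 held 275 of 290 domains whole inside 1 peak (94.8%, Wilson 95% interval 91.6 to 96.8) and replicate 2 held 260 (89.7%, 85.6 to 92.7). For the narrower supported peaks, which are easier to contain, the shares were 97.7% and 90.9%. A single peak of each replicate enclosed 246 domains (84.8%, 80.2 to 88.5), against 88.9% of the narrower peaks (88.1 to 89.7). The only domain enclosed by neither was II 455052 to 459264 (4213 bp). No domain met more than 1 replicate 1 peak, and 10 (3.45%, 1.88 to 6.23) met more than 1 replicate 2 peak, against 0.844% of the narrower peaks. The 5 with the most were X 16929241 to 16943487 and II 12787594 to 12791225 with 3 each, and IV 8770031 to 8776124, III 12596469 to 12602241 and II 455052 to 459264 with 2 each.

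Where a domain met a single peak of a replicate, it filled about as much of that peak in replicate 1 as in replicate 2. The median was 56.1% (interquartile range 37.1 to 75.9%, n = 290) in replicate 1 and 53.1% (36.0 to 71.3%, n = 280) in replicate 2. Narrower supported peaks filled 21.7% and 22.5%. The width of the peak itself, which the rule used, enters this share, so nothing is read from the contrast. The replicate peaks reached past the left and right edges of a domain by medians of 658.5 and 592.5 bp in replicate 1 and 749 and 926 bp in replicate 2. For the narrower peaks these overhangs were 661 and 616 bp in replicate 1 and 588 and 630 bp in replicate 2. The longer replicate extent at the domains thus came with replicate 1 overhangs of about the same length as at narrower peaks, and in replicate 2 with longer ones. In 81 of 290 cases (27.9%) the domain was the only series-wide peak of its replicate 1 peak, and in 68 of 280 (24.3%) of its replicate 2 peak. For the narrower peaks the shares were 31.6% and 35.8%.

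Extents of the replicates matched in most domains. They were within 1.5 times of each other at 230 of 290 domains (79.3%, Wilson 95% interval 74.3 to 83.6) and at 64.6% of the narrower supported peaks (63.4 to 65.8). Replicate 1 had the longer extent at 138 domains (47.6%, 41.9 to 53.3) but at 60.6% of the narrower peaks (59.3 to 61.8). The outer left edges of the replicate peaks differed by a median of 209 bp and the right edges by 221.5 bp, and these distances were 212 and 228 bp at the narrower peaks. Both edges were within 500 bp in 131 domains (45.2%, 39.5 to 50.9) and 45.6% of the narrower peaks (44.3 to 46.9). Across the 290 domains the replicate extents had a Spearman rho of 0.66, and across the narrower peaks 0.70. In both classes neighbouring peaks can share a replicate peak. Domains that met a single peak of a replicate met 263 different peaks in replicate 1 and 255 in replicate 2. For narrower peaks these numbers were 3323 and 3463. The extents, shares and coefficients here thus count some replicate peaks more than once, and the Wilson intervals do not allow for it. Extents were longer at the domains, so the same distance between edges gives a smaller ratio of extents there.

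**Figure D5:**
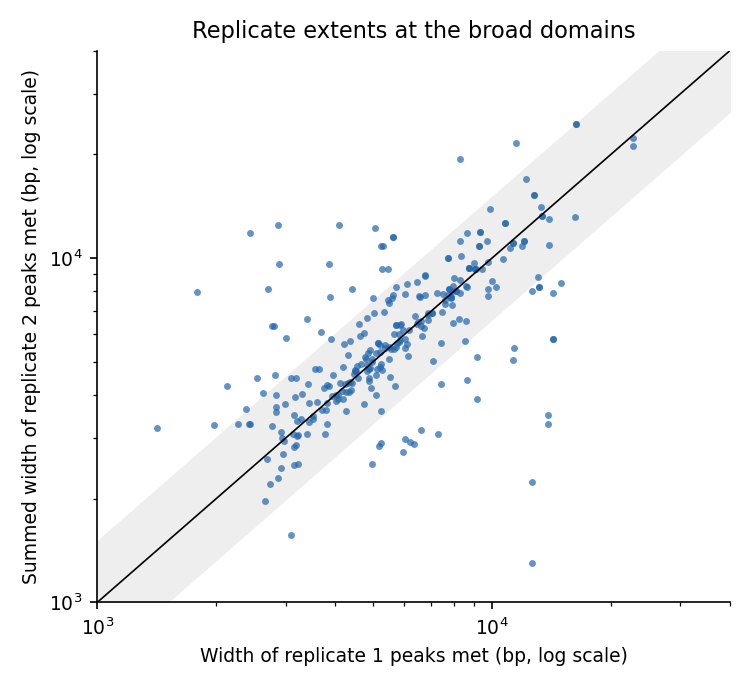
Each point is a domain, with the width of the replicate 1 peak it met on the x axis and the summed width of the replicate 2 peaks it met on the y axis (bp, log scales); the line marks equal extents and the grey band a ratio of up to 1.5 times. Of the 290 points, 230 lie in the band, and those outside it lie on both sides of the line.

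In a few domains 1 replicate covered clearly less. The largest differences in covered share were at I 6200510 to 6202886 (2377 bp, 51.7% covered in replicate 1 and 100% in replicate 2) and at IV 1085742 to 1087892 (2151 bp, 100% and 63.0%). They were followed by IV 16484626 to 16486658 (2033 bp, 100% and 63.9%), III 141789 to 144578 (2790 bp, 64.2% and 100%) and I 12214740 to 12216999 (2260 bp, 78.9% and 100%). Of these 5, replicate 1 covered less in 3 and replicate 2 in 2. The replicate 1 peak at I 6200510 to 6202886 had a score of 66.75, the lowest of any replicate 1 peak at a domain, while the replicate 2 peak there had 3100. Replicate 1 scores were under 1000 at 26 domains (8.97%) and replicate 2 scores at 6 (2.07%). The lowest replicate 2 score was 316.61 at V 19962260 to 19966217, a region named after its value was seen, where replicate 1 had 3100.

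Most wide series-wide peaks met the support rule. Of 307 series-wide peaks wider than 2000 bp, 290 (94.5%, Wilson 95% interval 91.3 to 96.5) had support from both replicates, against 48.2% of those of 2000 bp or less, beside 49.4% of all. A wider interval meets another peak more easily, and the overlap is part of the rule, so nothing is read from this share. The 17 others all met 1 replicate, 10 of them replicate 2 only and 7 replicate 1 only. Their median score was 16.69 (range 2.10 to 56.70). The widest was V 7916888 to 7925010 (8123 bp, score 31.89), which met no replicate 2 peak, and in replicate 1 a peak scored 3100. These were named or counted after their values were seen.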

How the data were processed

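ChIP-seq peak lists of N2 early embryos were used, a series-wide list and a list from each of the ChIP replicates. No file of an input sample was used. Per the submitters' processing notes, BWA and ce10 were used, with no role given. Per the file headers, coordinates are in WS220, and the source column names MACS v2 for the series-wide list and MACS for the replicate lists. For cut-offs, the control and any pooling of reads, the sources used here give nothing. The deposited score of each peak has no stated unit and was used within its list only. The lists hold no read counts, so depth is unknown.

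Intervals met where they shared 1 bp or more, in 1-based coordinates. Chromosome span is the highest peak end in any list. Shares have Wilson 95% intervals, which cover counting error only. No significance test was made, since the members were chosen by values of the same peak calls. Score percentiles are mean ranks in the series-wide list. Regions named are the 10 widest, the widest per chromosome, the 5 highest and 5 lowest scores, 3 on each side of the width threshold, the 5 closest pairs, the longest chains, the 5 largest coverage differences and the 5 met by the most peaks of a replicate. The members and rules were chosen with earlier results of these data known. The steps were checked on planted intervals. The symbol jhdm-1 came from a WBcel235 gene table, whose coordinates were not used. Alternatives were the width threshold, the overlap, 1 replicate alone, autosomes only, joined intervals, midpoint distances, the arm boundary and the rank reference. Tools were scipy 1.17.1, pandas 2.3.3, matplotlib 3.10.9 and numpy 2.4.6 under Python 3.11.15.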

Additional observations from a re-analysis of the deposited data

How the results depend on the processing

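Of 98 recomputed values, 64 stayed within the interval of the main value (or, for the number of domains and their share of base pairs, within 1.5 times of it). Those 64 include the median covered percent, which was 100% in each replicate under every setting. Asking each replicate to cover at least 50% of a peak kept all 290 domains. The count of 64 is therefore not a measure of stability. Width thresholds of 1500 and 3000 bp gave 561 and 110 domains, 29.9% and 10.6% of supported base pairs, 8.39% and 1.57% of supported peaks on X, 9.29% and 1.83% on autosomes, median gaps to the next domain of 89868 and 412932 bp, replicate 1 extents of 4993 and 6613 bp and replicate 2 extents of 5015 and 7468 bp. At 1500 bp the median score percentile was 91.8. Joining supported intervals less than 500 bp apart gave 613 domains, 44.0% of base pairs, 12.9% of peaks on X, 15.1% on autosomes, 30.5% with a neighbour within 1000 bp, 70.0% inside 1 peak of each replicate, a gap of 93535 bp and extents of 4901 and 5053 bp. Each of these settings changes which intervals are counted, and the reasons for the single shifts were not tested. With 1 replicate left out, domains made up 2.33 to 3.71% of supported peaks on X and 3.46 to 3.95% on autosomes, and 89.3 to 94.9% lay inside 1 peak. By midpoints 0% of domains had a neighbour within 1000 bp, as their own width prevents it. Among supported peaks alone the median percentile was 89.0. The arm share was 48.6% with arms as the outer 20% (34.0% of narrower peaks). In the alternatives added after seeing the data it was 44.8% and 42.4% in the widest replicate 1 and replicate 2 peaks, where the cause was not tested, and 52.9 to 60.7% with a chromosome left out. No paired analysis was possible because the inputs, which share replicate numbers with the ChIP samples, have no values here. Depth is unknown, so the ends of domains at weaker signal cannot be judged.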

Other observations

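The number of broad stretches depended on how intervals less than 500 bp apart were treated. Joining such supported intervals raised the number wider than 2000 bp from 290 to 613 and their share of supported base pairs from 19.8% to 44.0%, while the share in chromosome arms went from 56.6% (Wilson 95% interval 50.8 to 62.1) to 52.0% (48.1 to 56.0) and the share of the narrower intervals in arms from 43.4% to 39.1%. Of the 290 widest replicate 1 peaks 14.1% lay on X (10.6 to 18.6), against 9.59% of the other peaks of that list (8.71 to 10.6). In the replicate 2 list the widest 290 and the others had about the same share on X, 13.8% (10.3 to 18.2) and 13.6% (12.8 to 14.5).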
